A study of Homo sapiens with 60 samples.

Results

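The 31 human genes described here encode phase II conjugation enzymes: 8 UDP-glucuronosyltransferases (UGT), 6 sulfotransferases (SULT), 13 glutathione S-transferases (GST, the membrane-bound MGST forms included) and 4 other transferases (NAT1, TPMT, NNMT and GLYAT). They were chosen by gene symbol, with earlier results of these data known. All 31 were found among the 60675 Ensembl gene identifiers of the deposited table. RNA had been sequenced from HepG2, an established human liver cancer cell line that keeps many hepatocyte functions, after 24 h with 1 of 8 herbal extracts at 3 doses or with vehicle, in 60 libraries. The comparisons address which of these enzymes HepG2 cells express and which of them moved with the dose of an extract.

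Hot-water extracts of the herbal decoctions Yijin-tang and Soshiho-tang were tested, and 70% ethanol extracts of Liriopis seu Ophiopogonis Tuber, Schisandrae Fructus, Longan Arillus, Zizyphi Semen, Polygalae Radix and Aucklandiae Radix. They are called yijin, soshiho, liriope, schisandra, longan, zizyphus, polygala and aucklandia here. Low, medium and high doses were 20, 100 and 500 µg/mL, except 10, 50 and 250 µg/mL for polygala and 11.2, 56 and 280 µg/mL for aucklandia. Per the series text, a top dose under 500 µg/mL was set at the concentration that cut viability by 20%. Each dose had 3 libraries, except 2 for soshiho and 1 for polygala and for aucklandia, and the DMSO vehicle had 3. The labels give 0.1% DMSO and the series text 2%, which the values cannot settle. All groups are 1 cell line, and the labels do not say that replicates were separate cultures, so the spread behind each p-value is that between these libraries and may be technical.

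Phase II enzymes attach a polar group to drugs, bile acids, bilirubin, steroids and dietary compounds, which makes most of them easier to excrete. UGTs transfer glucuronic acid from UDP-glucuronic acid inside the endoplasmic reticulum, cytosolic SULTs transfer sulfate from the donor PAPS, and GSTs join glutathione to electrophiles. NAT1 acetylates arylamines, TPMT methylates thiopurines, NNMT methylates nicotinamide and GLYAT joins glycine to acyl groups. In liver, nuclear receptors, the NRF2 pathway and the liver-enriched factors HNF1 and C/EBP are known to regulate several of these genes.

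Library totals were 20.7 to 38.0 M expected counts. Levels are given in CPM, the usual counts-per-library-total unit, with totals normalized by the trimmed mean of M values (TMM). All 10 hepatocyte markers were at 1 CPM or more in vehicle, with a summed level of 40472 to 53393 CPM over the 54 libraries of replicated groups. Of the markers of other cell types, 2 of 6 for fibroblasts (COL1A1, PDGFRB; 6.40 to 18.2 CPM summed over the list), 1 of 4 for endothelium (PECAM1; 4.03 to 6.21 CPM) and 2 of 4 for leukocytes (CD68, CD14; 32.2 to 55.4 CPM) reached 1 CPM. As in any bulk sample, fewer cells of a type and less RNA per cell cannot be told apart. Replicate 1 of low schisandra and replicate 2 of high liriope stood apart, with an SD of log2 differences from the group mean of 0.283 and 0.259, against 0.115 to 0.190 in the other 52 libraries of replicated groups. Called changes of members in schisandra and liriope that rest on them are given with and without them. Changes of other genes are given with them only.

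SULT2A1, GSTA1 and GSTA2 had the smallest p-values of the members in the test of whether the change between doses differed among extracts, so the 250 bases before their annotated starts are shown. The sequences are from RefSeq on GRCh38.p14, all on the minus strand and written 5′ to 3′, for the windows chr19:47886316-47886565 (SULT2A1), chr6:52803817-52804066 (GSTA1) and chr6:52763476-52763725 (GSTA2). Capitals mark matches to the C/EBP motif TTGCNNAA (TTNNGCAA on the other strand) or to GTTAAT, the core of an HNF1 site, which reads ATTAAC on the other strand.
SULT2A1: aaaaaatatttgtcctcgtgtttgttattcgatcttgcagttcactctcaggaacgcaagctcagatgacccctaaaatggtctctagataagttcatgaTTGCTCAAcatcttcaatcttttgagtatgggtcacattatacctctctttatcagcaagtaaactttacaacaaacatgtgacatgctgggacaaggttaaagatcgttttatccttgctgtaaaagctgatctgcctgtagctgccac
GSTA1: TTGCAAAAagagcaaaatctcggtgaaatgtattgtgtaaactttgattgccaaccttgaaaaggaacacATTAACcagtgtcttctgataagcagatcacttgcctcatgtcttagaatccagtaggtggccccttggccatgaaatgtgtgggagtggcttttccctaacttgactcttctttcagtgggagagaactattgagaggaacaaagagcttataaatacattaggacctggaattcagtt
GSTA2: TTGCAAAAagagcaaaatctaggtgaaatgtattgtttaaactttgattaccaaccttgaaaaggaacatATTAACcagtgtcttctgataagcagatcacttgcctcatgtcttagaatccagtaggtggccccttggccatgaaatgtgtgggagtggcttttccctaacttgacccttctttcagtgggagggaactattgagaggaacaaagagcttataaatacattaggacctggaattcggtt
The GSTA1 and GSTA2 windows were equal at 243 of 250 bases (97.2%), and both held ATTAAC at -180 to -175 and TTGCAAAA at -250 to -243, counted back from -1 just before the start. In SULT2A1 the match was TTGCTCAA at -150 to -143. A C/EBP match was found in 9.05% of all 35116 RefSeq windows of this length and in 5 of the 25 members that have one. The HNF1 core was in 6.23% of all windows and in 6 of 25 members, the antioxidant response element TGACNNNGC (GCNNNGTCA on the other strand) in 10.9% and in 7, and the xenobiotic response element core GCGTG, which reads CACGC on the other strand, in 32.2% and in 6. These motifs do not overlap each other in the 3 printed windows. A match to letters is a description and not a binding site. The RefSeq starts of these 3 genes lie inside the GENCODE gene bounds given with the results, so each window also covers the first bases of the GENCODE gene.

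HepG2 cells expressed 21 of the 31 genes at a mean of 1 CPM or more in vehicle: 12 of 13 GSTs, 4 of 6 SULTs, 3 of 8 UGTs and 2 of the 4 others. UGT2B10, which glucuronidates nicotine and other amines, was the main UGT at 72.9 ± 6.24 CPM (SD, n = 3 for all vehicle values). UGT2B7, the morphine and steroid UGT, followed at 16.3 CPM and UGT2B4, a bile acid UGT, at 1.36 ± 0.314 CPM. UGT2B11 averaged 0.429 CPM, and UGT1A1, the bilirubin UGT, 0.119 ± 0.0564 CPM, which was 5, 2 and 2 counts in the 3 vehicle libraries.

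Among sulfotransferases, SULT2A1, which sulfates DHEA and bile acids, averaged 96.6 ± 2.98 CPM in vehicle and SULT1A1, the main phenol sulfotransferase, 87.5 ± 4.32 CPM. SULT1A2 averaged 22.7 CPM and SULT1C2 7.46 CPM. The estrogen sulfotransferase SULT1E1 (0.871 CPM) and SULT1B1 (0.359 CPM) were below 1 CPM.

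In the GST family the microsomal MGST1 had the highest CPM in vehicle, at 113 ± 18.9 CPM. The omega form GSTO1 averaged 49.0 CPM, mitochondrial and peroxisomal GSTK1 43.2 CPM, the alpha form GSTA1 42.4 ± 3.19 CPM, MGST2 37.9 CPM and the mu form GSTM4 32.9 CPM. GSTM3, GSTA4, MGST3, GSTZ1, GSTM2 and GSTA2 lay between 19.8 CPM (GSTM3) and 6.19 CPM (GSTA2). Of the others, TPMT averaged 30.1 CPM and NAT1 3.45 CPM.

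Levels between genes need a length: per kb of summed exons, the vehicle level was highest for SULT2A1 (48.6 CPM per kb), then GSTA1 (41.6) and UGT2B10 (37.8). Per kb of the principal transcript it was highest for MGST1 (116 CPM per kb), then GSTO1 (50.4) and SULT2A1 (48.6). The order at the top therefore depends on the length used.

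**Figure D1:**
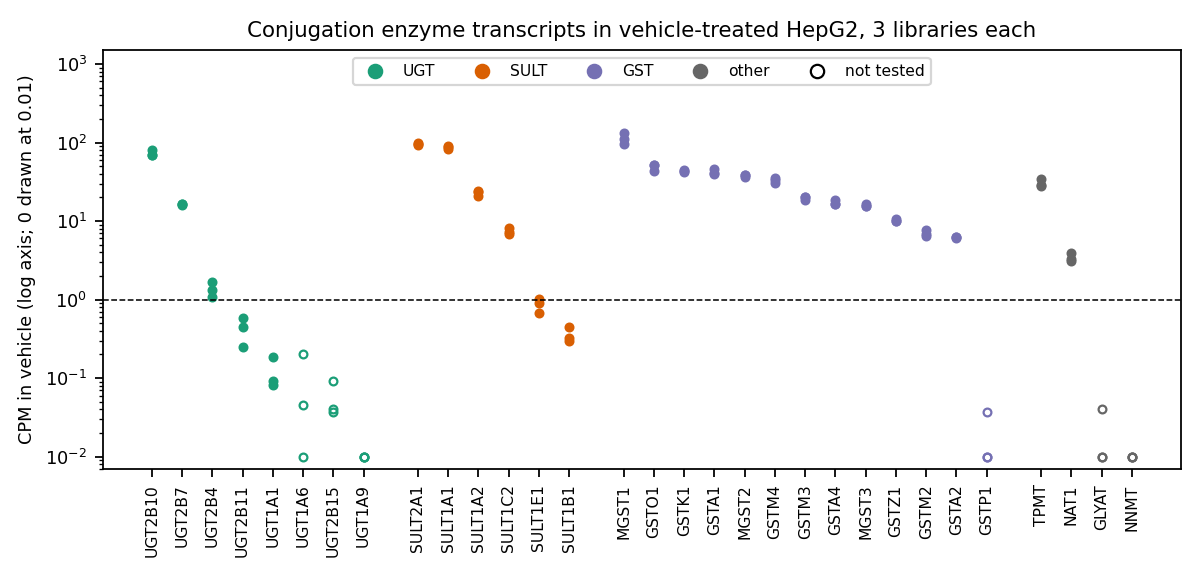
Level of each of the 31 genes in the 3 vehicle libraries, in CPM on a log axis, grouped by family, 1 point a library, with a value of 0 drawn at 0.01 CPM and genes that were not tested as open points. The dashed line at 1 CPM separates the 21 genes called expressed from the other 10.

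The filter on low counts left 25 of the 31 genes for testing: 5 UGTs, 6 SULTs, 12 GSTs, and NAT1 and TPMT. UGT1A6 had 93 counts over all 60 libraries and at most 6 in any one, and UGT2B15 had 58 and at most 9. The pi form GSTP1 had 19 counts in 60 libraries, 1 of them in vehicle, GLYAT 16, UGT1A9 8 and NNMT 2. Neither UGT1A9 nor NNMT had a count in vehicle. There 3 counts over the group would be 0.0376 CPM, so a level below that could have gone unseen at this depth. UGT1A1 passed the filter narrowly: 11 of 54 libraries, 5 of yijin, 5 of soshiho and 1 of liriope, reached the scaled minimum of 10 counts, and a gene that passes through the groups where it is high had to differ between groups.

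Between the high and the low dose, the main comparison within an extract, members moved in yijin, soshiho and schisandra. In yijin 7 of the 25 tested members were called, 4 higher and 3 lower, where 7.79% of all tested genes were called, 3.78% higher and 4.01% lower. Of the 4 higher members 1, UGT1A1, passed the filter through the libraries where it is high, so its call is not read as a result, which leaves 6 called members. For soshiho it was 3 members, 2 higher and 1 lower, against 5.08% of all genes, 2.81% higher and 2.27% lower. For schisandra it was 7 members, 1 higher and 6 lower, against 7.33%, 3.92% higher and 3.4% lower. Calls are edgeR quasi-likelihood tests over 16924 genes with an adjusted p under 0.05. Called members came from all 3 large families, and neither NAT1 nor TPMT was called. Of the 10 hepatocyte markers 3 were lower in yijin (FGB, TF and APOA1, -0.26, -0.21 and -0.28 on the log2 scale), 0 were called in soshiho, and in schisandra 2 were higher (AHSG and TTR, 0.32 and 0.35) and 1 lower (FGB, -0.26). Of the markers of other cell types COL1A1 was lower in soshiho (-1.22) and CD68 higher in schisandra (0.52), and the part of any of these in the results was not tested.

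Liriope, longan and zizyphus had 0 members called by edgeR between high and low dose, in comparisons that called 0.0295%, 0.0177% and 0.0355% of all genes. At an unadjusted p under 0.05 there were 7 members in liriope, 0 in longan and 0 in zizyphus. The share of all genes under that unadjusted p is not given here, so these counts are not read as a result. DESeq2 called 1 member in liriope (GSTA1) and 0 in longan and zizyphus. The medium dose against the low dose had 0 members called in any of the 6 extracts, and the smallest adjusted p of a member there was 0.413. The background in that comparison was 0.00591% for yijin, 0.118% for soshiho, 0.0709% for schisandra, 0.00591% for zizyphus and 0% for liriope and longan. An unadjusted p under 0.05 was reached by 1 member each in yijin, soshiho, liriope and schisandra and by 0 in longan and zizyphus. These counts also have no share of all genes beside them. DESeq2 called 0 members in all 6.

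The median log2 change of the 25 members, high over low, was 0.06 in yijin, 0.06 in soshiho, 0.12 in liriope, -0.07 in schisandra, 0.01 in longan and -0.01 in zizyphus, while that of all tested genes lay within 0.01 of 0 in every extract. Scaling matters to directions over all genes: of the calls between high and low dose, 48.6% were higher in yijin, 55.3% in soshiho and 53.5% in schisandra under the scaling used here, against 35.9%, 44.1% and 29.1% under library size alone.

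**Figure D2:**
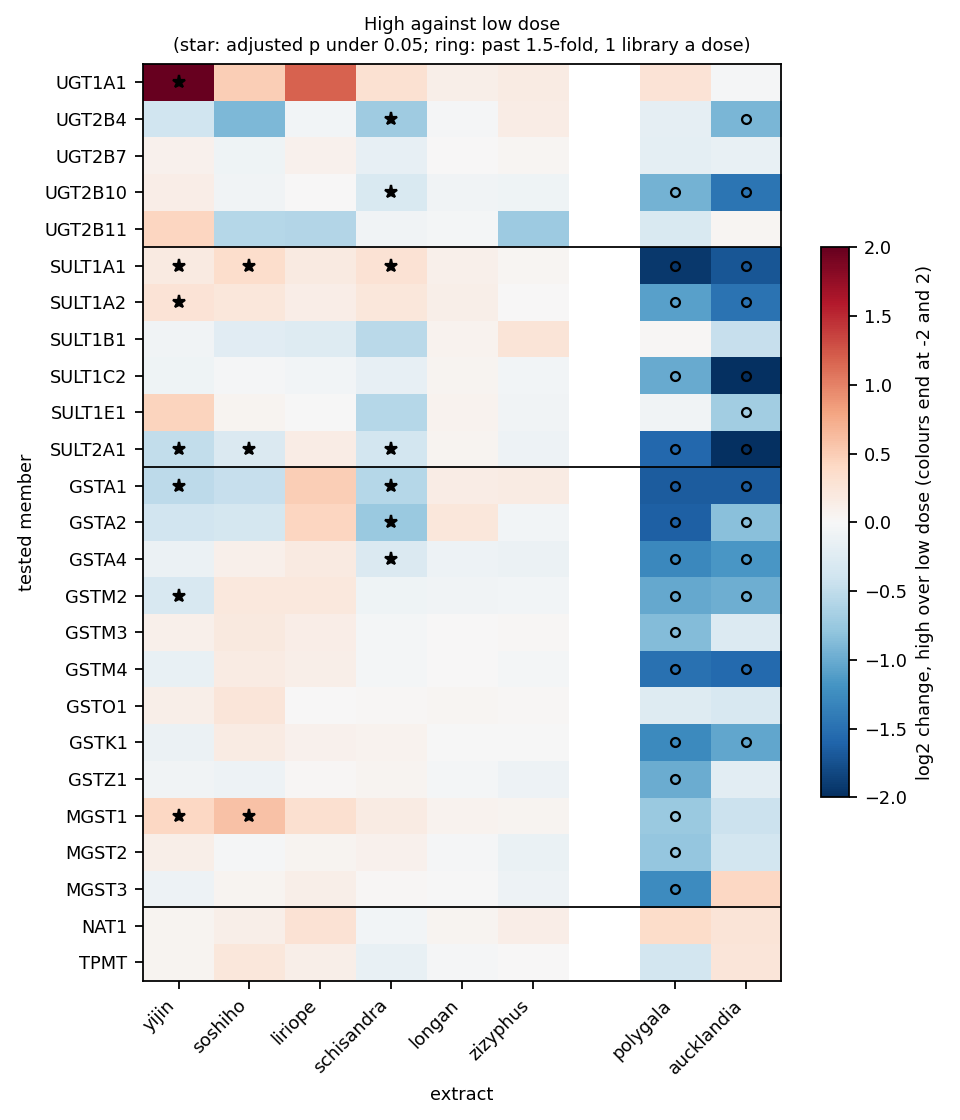
Log2 change, high over low dose, of the 25 tested members (down the page, by family) in the 8 extracts (across), red for higher and blue for lower. A star marks an adjusted p under 0.05 in the 6 replicated extracts (that of UGT1A1 in yijin is not read as a result) and a ring a change past 1.5-fold in polygala and aucklandia, where every ring is on a lower value.

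UGT1A1 (chromosome 2, 233760248 to 233773299 on GRCh38) had its highest levels in yijin and soshiho, on very few counts, and is described here without a test because of how it passed the filter. In yijin it had 19, 21 and 14 counts in the 3 high-dose libraries, against 4, 2 and 5 in low-dose libraries, while medium-dose libraries had 10, 8 and 13 and vehicle libraries 5, 2 and 2. Every high-dose library was above every medium-dose one, and these above every low-dose one. The mean was 0.665 ± 0.104 CPM at the high dose and 0.147 ± 0.0656 CPM at the low dose (SD, n = 3 each), a fitted log2 change of 2.16 that was 1.83 without replicate 2 of low yijin. DESeq2 gave no adjusted p for UGT1A1 in this comparison or for high yijin or high soshiho against vehicle. In soshiho UGT1A1 had 14 and 19 counts at the high dose and 11 and 14 at the low dose, with 12 and 7 at the medium dose, all above the vehicle counts. Of its principal transcript, 60.5% of 100-base stretches are also in other UGT1A genes, which share their last exons, so reads cannot all be told apart.

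UGT2B4 (chromosome 4, 69480165 to 69526014) was lower at the high than at the low dose of schisandra. It had 1.01, 1.45 and 1.13 CPM in high-dose libraries, against 2.13, 1.87 and 1.86 CPM in low-dose libraries, and the groups did not overlap. Vehicle libraries had 1.69, 1.07 and 1.32 CPM, and neither schisandra dose was called against vehicle. The log2 change, high over low, was -0.72 ± 0.21 (SE; adjusted p = 0.021, edgeR). The call was lost without replicate 1 of low schisandra (-0.64, adjusted p = 0.131) and without replicate 1 or 3 of high schisandra (-0.60 and -0.68, adjusted p = 0.132 and 0.0813). In soshiho it had 0.796 and 0.604 CPM at the high dose, against 1.13 and 1.5 CPM at the low dose, a change of -0.90 ± 0.30 that missed the threshold (adjusted p = 0.068).

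UGT2B10 (chromosome 4, 68815993 to 68831196), the most abundant UGT here, also fell in high schisandra, with 61, 61.1 and 65.3 CPM, against 88.1, 71.3 and 70.9 CPM at the low dose. The 3 high-dose libraries were below all low-dose libraries, and the medium dose (70.7, 71.1 and 70.3 CPM) was at the level of the 2 lower of these. The log2 change was -0.30 ± 0.061 (SE; adjusted p = 0.00072, edgeR), and -0.19 (adjusted p = 0.0561) without replicate 1 of low schisandra, one of the 2 libraries that stood apart. UGT2B7 and UGT2B11 were not called between high and low dose in any replicated extract, with log2 changes of -0.16 to 0.09 and of -0.73 to 0.43.

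SULT2A1 (chromosome 19, 47870466 to 47886397), whose upstream window is printed above, was lower at the high than at the low dose of yijin, soshiho and schisandra. High yijin libraries had 72.9, 74.5 and 71.1 CPM, against 102, 99.3 and 107 CPM at the low dose, with 98.6, 96.6 and 94.9 CPM at the medium dose and 95.9, 99.9 and 94.1 CPM in vehicle. Every high-dose library was below every library of the other doses and of vehicle, and vehicle spanned the medium dose. The log2 change, high over low, was -0.50 ± 0.063 (SE; adjusted p = 2e-07, edgeR), the smallest p of any member.

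In schisandra SULT2A1 had 88.6, 92.6 and 85.4 CPM at the high dose, against 135, 105 and 103 CPM at the low dose. The low dose was called higher than vehicle (95.9, 99.9 and 94.1 CPM), and the high dose was not called against vehicle. The change, high over low, was -0.36 ± 0.063 (adjusted p = 7.3e-05, edgeR), and the high-dose libraries were below all low-dose ones. Without replicate 1 of low schisandra, the library at 135 CPM, it was -0.22 (adjusted p = 0.00875), and without both libraries that stood apart -0.22 (adjusted p = 0.00349). In soshiho it had 81.0 and 88.7 CPM at the high dose, against 105 and 104 CPM at the low dose (-0.30 ± 0.077, adjusted p = 0.012). That last call was lost without replicate 2 of high soshiho (-0.23, adjusted p = 0.265) and without either low-dose library (-0.29 and -0.30, adjusted p = 0.11 and 0.0862). Liriope went the other way without a call: 106, 119 and 105 CPM at the high dose, against 103, 99.6 and 95 CPM at the low dose (0.15, adjusted p = 0.58).

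SULT1A1 (chromosome 16, 28605196 to 28623625) rose at the high dose of soshiho, schisandra and yijin. Its levels were 117 and 122 CPM in high soshiho, against 95.7 and 92.5 CPM in low soshiho, with 104 and 104 CPM at the medium dose. High schisandra libraries had 104, 107 and 111 CPM, against 85.2, 93.1 and 85.6 CPM in low schisandra. High yijin libraries had 97.1, 105 and 100.1 CPM, against 85.2, 93.0 and 88.7 CPM in low yijin. In all 3 extracts every high-dose library was above every low-dose library, and the vehicle libraries (82.8, 91.3 and 88.4 CPM) were below all of these high-dose libraries.

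The log2 change of SULT1A1 was 0.34 ± 0.071 in soshiho (SE; adjusted p = 0.001), 0.29 ± 0.058 in schisandra (adjusted p = 0.00082) and 0.18 ± 0.058 in yijin (adjusted p = 0.046, all edgeR). In liriope it was 0.18 ± 0.059, not called (adjusted p = 0.56). The yijin call, close to the threshold, was lost without replicate 2 or 3 of high yijin or replicate 1 or 3 of low yijin (0.15 to 0.19, adjusted p 0.0933 to 0.238). SULT1A2, a close relative next to it on chromosome 16 (28591943 to 28597109), had 27.7, 29.1 and 28.7 CPM in high yijin, against 21.9, 23.3 and 25.6 CPM in low yijin (0.27 ± 0.080, adjusted p = 0.026), a call that was lost without replicate 2 or 3 of high yijin or replicate 1 or 2 of low yijin (0.22 to 0.27, adjusted p 0.0748 to 0.149). Its change was 0.23 in soshiho and 0.23 in schisandra, neither called (adjusted p = 0.20 and 0.065, edgeR). In both, and in longan (0.11), every high-dose library of SULT1A2 was above every low-dose one. Of their 100-base stretches, 8.47% of SULT1A1 and 5.97% of SULT1A2 are in other genes. SULT1A1 shares most with SULT1A3 (6.09%), and SULT1A2 shares 3.84% with SULT1A1. SULT1B1, SULT1C2 and SULT1E1 were not called in any replicated extract, with log2 changes of -0.55 to 0.25, -0.16 to 0.06 and -0.57 to 0.44.

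GSTA1 (chromosome 6, 52791664 to 52803910) and GSTA2 (52750089 to 52763569), the neighbouring alpha-class genes with nearly the same upstream window, fell at the high dose of schisandra, and GSTA1 also in yijin. High schisandra libraries had 31.1, 30.2 and 26.6 CPM of GSTA1, against 47.7, 48.1 and 34.7 CPM in low schisandra. High yijin libraries had 28.4, 29.2 and 28.4 CPM, against 38.6, 41.5 and 43.3 CPM in low yijin. High soshiho libraries had 28.1 and 29.8 CPM, against 38.1 and 41.8 CPM in low soshiho. In each of these 3 extracts all high-dose libraries were below all low-dose ones, while medium-dose libraries (39.5 to 47.6 CPM) stayed at the level of vehicle (46.0, 41.3 and 39.9 CPM). 

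The log2 change of GSTA1 was -0.57 ± 0.13 in schisandra (SE; adjusted p = 0.0019, edgeR), -0.52 ± 0.13 in yijin (adjusted p = 0.0049) and -0.46 ± 0.16 in soshiho, which missed the threshold (adjusted p = 0.078) but was called by DESeq2 (adjusted p = 0.0394), under library size alone (0.0314) and in 4 other alternatives. The schisandra change of GSTA1 was -0.50 (adjusted p = 0.0308) without replicate 1 of low schisandra. GSTA2 had 3.74, 3.90 and 3.84 CPM in high schisandra, against 7.64, 5.85 and 5.57 CPM in low schisandra, a change of -0.75 ± 0.14 (adjusted p = 0.00022) or 0.596-fold, and of -0.58 (adjusted p = 0.017) without replicate 1 of low schisandra. Its changes in yijin (-0.38) and soshiho (-0.35) were not called (adjusted p = 0.083 and 0.31). GSTA1 and GSTA2 share 12% and 9.06% of their 100-base stretches with each other, so part of their counts rests on how reads were divided.

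In liriope both alpha genes had higher values at the high dose. GSTA1 had 49.9, 70.5 and 47.6 CPM in high liriope, against 44.4, 41.8 and 33.8 CPM in low liriope, and GSTA2 had 7.70, 10.4 and 6.88 CPM, against 6.26, 6.84 and 5.49 CPM. The groups did not overlap for either gene, but neither change was called by edgeR (0.49 and 0.43 on the log2 scale, adjusted p = 0.25 and 0.47), while DESeq2 called GSTA1 (adjusted p = 0.049) and edgeR without the filter on low counts called both, and replicate 2 of high liriope, which stood apart, had the highest value of both. Without it the changes were 0.28 and 0.22, not called by edgeR. GSTA4, an alpha form that acts on lipid peroxidation products, had 15.7, 16.7 and 13.5 CPM in high schisandra, against 21.9, 18.0 and 16.1 CPM in low schisandra, and the groups overlapped. Its change of -0.29 ± 0.086 (adjusted p = 0.026) became -0.15 (adjusted p = 0.463) without replicate 1 of low schisandra, and the call was also lost without replicate 1 or 3 of high schisandra (adjusted p = 0.054 and 0.204). Fitted on the libraries of the 2 doses alone, 0 of the 7 schisandra members were called (adjusted p 0.0545 to 0.411), with changes within 0.01 of those above.

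MGST1 (chromosome 12, 16347142 to 16609259), a membrane glutathione transferase and peroxidase, rose at the high dose of soshiho and yijin. High soshiho libraries had 162 and 176 CPM, against 115 and 111 CPM in low soshiho, with 138 and 147 CPM at the medium dose. High yijin libraries had 136, 143 and 139 CPM, against 103, 106 and 106 CPM in low yijin, with 114, 123 and 106 CPM at the medium dose. Mean levels were higher at each higher dose in both, while vehicle was spread from 95.8 to 133 CPM. The log2 change was 0.58 ± 0.14 in soshiho (SE; adjusted p = 0.0056, edgeR) and 0.41 ± 0.12 in yijin (adjusted p = 0.017). Leaving out replicate 3 of high or of low soshiho lost the first call (0.52 and 0.55, adjusted p = 0.101 and 0.0926), and leaving out replicate 2 of high or replicate 1 or 3 of low yijin lost the second (0.39, 0.40 and 0.42, adjusted p = 0.0712, 0.0585 and 0.051).

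GSTM2 (chromosome 1, 109668022 to 109709551), a mu-class form, had 5.51, 6.58 and 5.43 CPM in high yijin, against 7.06, 7.48 and 7.53 CPM in low yijin. The groups did not overlap, and the change of -0.33 ± 0.11 was at the edge of the threshold (adjusted p = 0.049), lost without any 1 of the libraries other than replicate 2 of high yijin (-0.35 to -0.28, adjusted p 0.0674 to 0.201). Of its principal transcript, 63.6% of 100-base stretches are in other mu-class genes. The remaining GSTs, GSTM3, GSTM4, GSTO1, GSTK1, GSTZ1, MGST2 and MGST3, were not called between high and low dose in any replicated extract, with log2 changes from -0.15 (GSTM4 in yijin) to 0.23 (GSTO1 in soshiho). NAT1 and TPMT, with log2 changes of -0.05 to 0.28 and of -0.15 to 0.22, were not called either.

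**Figure D3:**
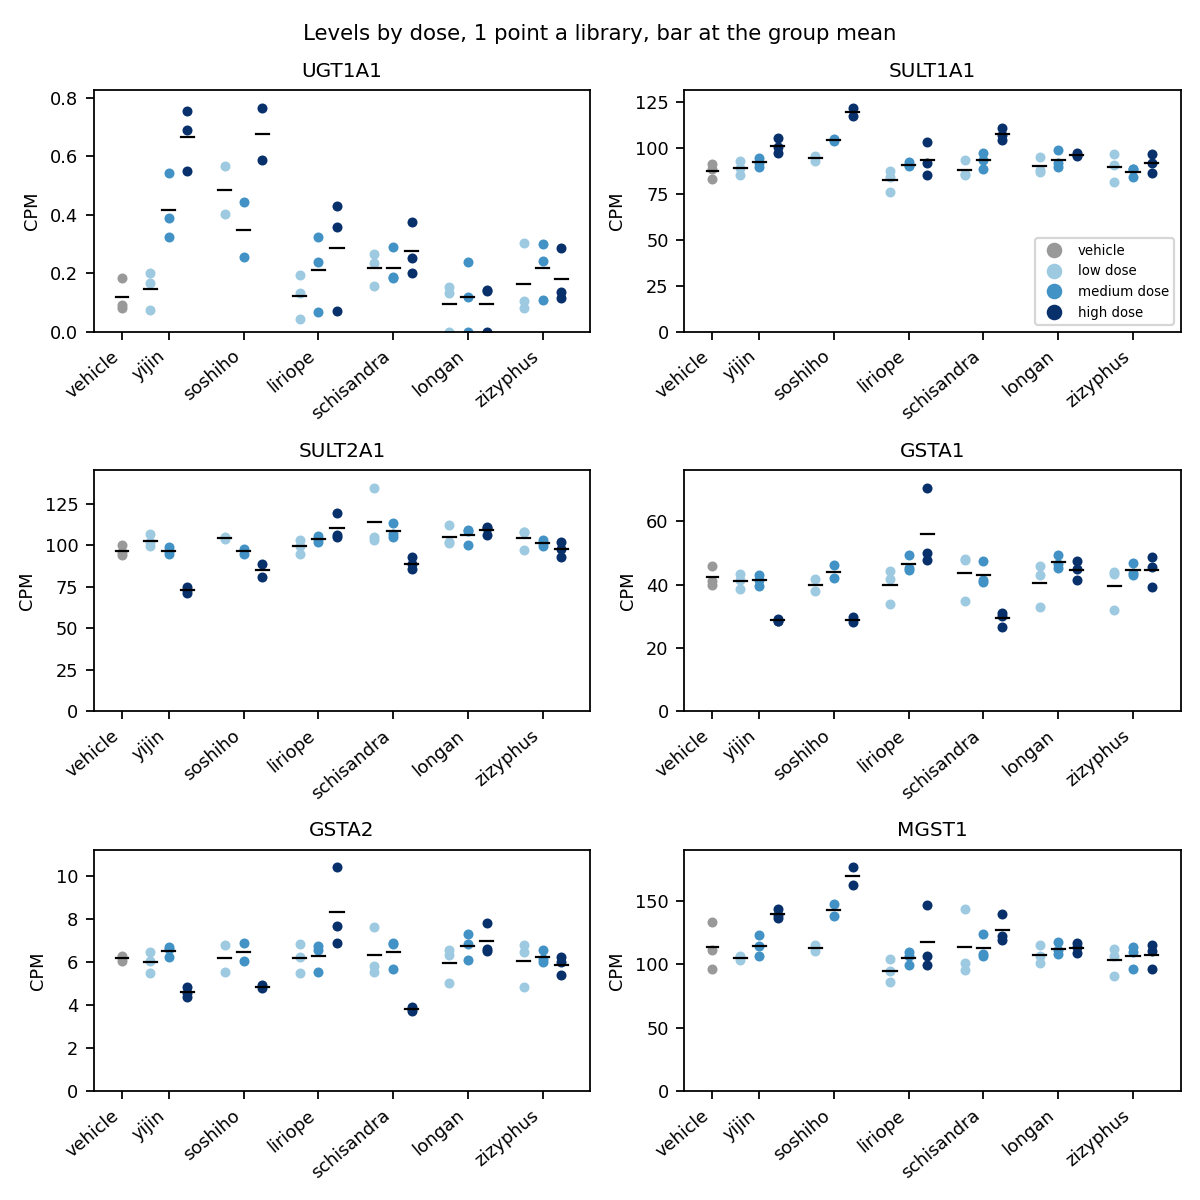
CPM of UGT1A1, SULT1A1, SULT2A1, GSTA1, GSTA2 and MGST1 in vehicle and at the low, medium and high dose of the 6 replicated extracts, 1 point a library and a bar at the group mean, axes from 0. SULT2A1 at 71.1 to 74.5 CPM in high yijin and GSTA1 at 26.6 to 31.1 CPM in high yijin, soshiho and schisandra are below the other doses.

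Whether the high over low change differed between extracts was tested directly. Over the 6 extracts together 4 of 25 members differed, where 5.52% of all genes did: SULT2A1 (adjusted p = 1.41e-06), GSTA1 (1.83e-05), GSTA2 (1.06e-04) and UGT2B10 (1.51e-02, edgeR F test). Without both libraries that stood apart, SULT2A1, GSTA1 and GSTA2 were still called (adjusted p = 2.05e-08, 8.99e-05 and 0.00123) and UGT2B10 was not (0.0604). UGT2B10 was also lost without replicate 2 of high yijin, replicate 1 or 2 of high schisandra or replicate 1 of low schisandra (adjusted p = 0.0564, 0.0513, 0.0518 and 0.0654).

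Within pairs of extracts that share a sample code set, 5 members differed between schisandra and liriope, where 4.11% of all genes did. The change in schisandra minus that in liriope was -1.18 ± 0.19 for GSTA2 (SE; adjusted p = 4.38e-05), -1.06 ± 0.17 for GSTA1 (7.46e-05), -0.52 ± 0.088 for SULT2A1 (0.000156), -0.47 ± 0.12 for GSTA4 (0.0156) and -0.30 ± 0.086 for UGT2B10 (0.032), all on the log2 scale by edgeR. Both outlying libraries enter this difference. Without them it was -0.80 (0.00557) for GSTA2, -0.78 (0.00462) for GSTA1 and -0.32 (0.00673) for SULT2A1, while GSTA4 (-0.24, 0.395) and UGT2B10 (-0.15, 0.46) were no longer called. Soshiho against yijin and zizyphus against longan had 0 members called, where 0.88% and 0.00591% of all genes were. At an unadjusted p under 0.05 there were 3 members for soshiho against yijin and 0 for zizyphus against longan. There is no share of all genes to set beside these counts. DESeq2 was not run on these differences.

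Against vehicle, GSTA1 was lower and SULT1A1 higher at the high dose of yijin, soshiho and schisandra, and GSTO1 was higher at the high dose of all 6 replicated extracts. All treated groups share the 3 vehicle libraries, and vehicle has a sample code set of its own, so code set and treatment cannot be told apart in these comparisons. In high yijin and in high soshiho 1 of the higher members counted below is UGT1A1. Its calls are not read as a result because of how it passed the filter. With it counted, 10 members were called in high yijin, 6 higher and 4 lower (23.4% of all genes called, 11.1% higher and 12.2% lower). In high soshiho it was 9, 7 higher and 2 lower (21.8% of all genes, 10.6% higher and 11.1% lower). In high schisandra it was 7, 4 higher and 3 lower (22.1% of all genes, 10.8% higher and 11.2% lower). In high liriope 6 were higher and 0 lower (16.8% of all genes, 8.56% higher and 8.21% lower), and GSTO1 was the 1 of these 6 still called without replicate 2 of high liriope. In high longan it was 6 and 0 (19.6%, 9.64% higher and 9.98% lower) and in high zizyphus 2 and 0 (16.9%, 8.15% higher and 8.73% lower). Scaling by library size alone moved the median of all genes up by 0.09 to 0.12 on the log2 scale in these comparisons, so a small higher value here is relative to the scaling.

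GSTA1 was lower than in vehicle at the high dose of yijin (-0.56 ± 0.13, adjusted p = 0.00073), soshiho (-0.55 ± 0.14, 0.0039) and schisandra (-0.53 ± 0.13, 0.0017) and higher in liriope (0.41 ± 0.12, 0.015). Without replicate 2 of high liriope the last was 0.19 (adjusted p = 0.29), and the soshiho call was lost without replicate 2 of high soshiho (-0.52, 0.0627). SULT2A1 was lower in high yijin (-0.41 ± 0.064, 4.8e-06), while its change was -0.12 in schisandra (0.18) and -0.19 in soshiho (0.054), neither called. UGT1A1, again described without a test, had fitted changes of 2.41 in high yijin and 2.43 in high soshiho.

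GSTO1 (chromosome 10, 104235356 to 104267459), which reduces dehydroascorbate and arsenic compounds, was higher than vehicle at the high dose of all 6 replicated extracts. GSTO1 was 0.54 to 0.81 higher on the log2 scale at the high dose (adjusted p 5.1e-10 to 4.6e-06, edgeR) and 0.53 to 0.65 higher at the low dose, called in all 6 extracts at both doses (11.9% to 21.5% of all genes were called at the low dose). Over the 51 treated libraries it ran from 65.3 to 85.9 CPM (median 73.3), all above the 3 vehicle libraries (43.5, 51.8 and 51.7 CPM). It was not called between high and low dose in any extract (0.01 to 0.23). In soshiho both high-dose libraries of GSTO1 (85.9 and 85.7 CPM) were above both low-dose ones (72.5 and 73.3 CPM). There, with 2 libraries a dose, most tested members had no overlap between these doses. Of the alternatives, only a fit on the libraries of these 2 soshiho doses alone called GSTO1 (adjusted p = 0.0015, edgeR). The main fit did not (adjusted p = 0.16, edgeR). That smaller fit called 1707 genes in all, against 860 in the main fit. The mu-class GSTM3 was 0.33 to 0.38 higher at the high dose of all 6, but the liriope call was lost without replicate 2 of high liriope (0.23, adjusted p = 0.0801) and without both libraries that stood apart (0.24, 0.0554), and the zizyphus call without replicate 2 of high zizyphus (0.24, 0.0851) or replicate 1 of vehicle (0.29, 0.0599). In all, 50 of 51 treated libraries (20.0 to 28.9 CPM) were above all vehicle libraries (18.5, 20.5 and 20.3 CPM). At the low dose GSTM3 was called in schisandra, longan and zizyphus. Vehicle differs from every treated group in code set as well as in treatment, which cannot be told apart here.

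**Figure D4:**
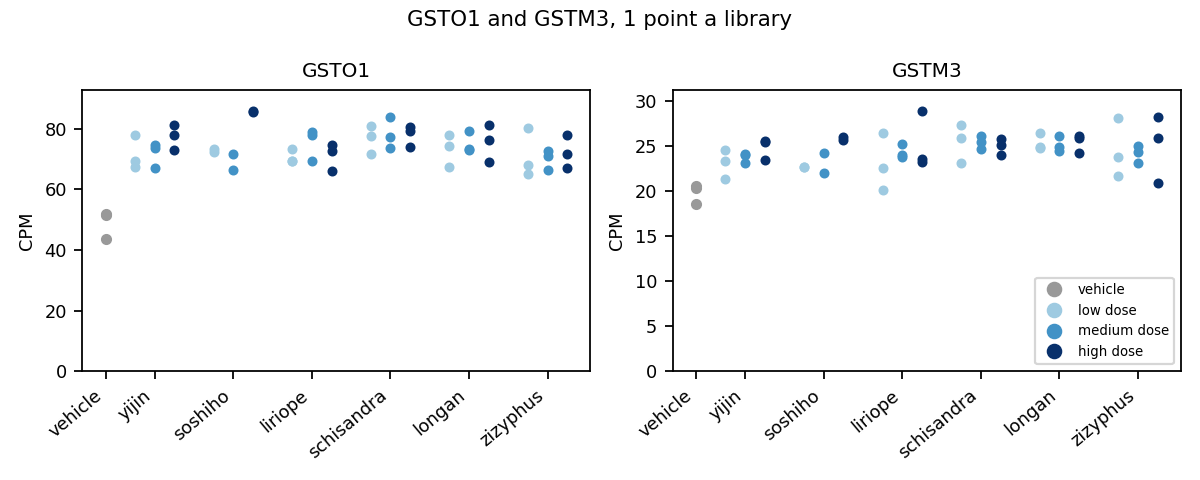
CPM of GSTO1 and GSTM3 in vehicle and at the low, medium and high dose of the 6 replicated extracts, 1 point a library, axes from 0. All treated libraries of GSTO1 (65.3 CPM or more) are above vehicle (51.8 CPM or less). Its change between high and low dose was not called in any extract. In soshiho, with 2 libraries a dose, the high dose (85.9 and 85.7 CPM) is above the low dose (72.5 and 73.3 CPM).

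Other members called against vehicle at the high dose are given by their log2 change. GSTA2 was lower in schisandra (-0.69, adjusted p = 0.00028, edgeR) and yijin (-0.43, 0.018) and higher in liriope (0.44, 0.013). The yijin call of GSTA2 was lost under library size alone (-0.32, 0.0542) and without replicate 2 or 3 of high yijin (-0.42 and -0.40, 0.0544 and 0.0646). Its liriope call was lost without replicate 2 of high liriope (0.22, 0.247). SULT1A1 was higher at the high dose of soshiho (0.45 ± 0.065, adjusted p = 9.2e-07), schisandra (0.29 ± 0.059, 0.00021) and yijin (0.21 ± 0.059, 0.0076). SULT1A2 was higher in these 3 and in longan (0.23 to 0.44), in schisandra not without replicate 1 of vehicle (0.24, 0.0619) and in longan not without any 1 of 5 libraries (0.17 to 0.25, 0.0526 to 0.239). SULT2A1 was higher in liriope (0.19, 0.030) and longan (0.18, 0.040), as was GSTZ1 (0.24 and 0.24, 0.046 and 0.043). Leaving out any 1 of the libraries compared lost SULT2A1 in longan (0.0537 to 0.144) and GSTZ1 in liriope (0.0619 to 0.154). In liriope SULT2A1 was lost without replicate 2 of high liriope (0.12, 0.24) or replicate 1 or 3 of vehicle. In longan GSTZ1 was lost without any 1 vehicle library or replicate 1 or 2 of high longan. MGST1 was higher in soshiho (0.57 ± 0.13, 0.00067), as was TPMT (0.31 ± 0.070, 0.001), TPMT not without replicate 3 of high soshiho (0.25, 0.0581). UGT2B4 was lower in soshiho (-0.96 ± 0.28, 0.0083), though not without replicate 3 of high soshiho (-0.78, 0.14) or replicate 1 of vehicle (-0.77, 0.0708). UGT2B7 was higher in yijin (0.26 ± 0.058, 0.00065) and longan (0.18 ± 0.059, 0.026), the second not by DESeq2 (0.062), nor without replicate 1 or 2 of vehicle (0.17 and 0.17, 0.0887 and 0.0833) or replicate 1 of high longan (0.16, 0.11). UGT2B10 was lower in schisandra (-0.23, 0.0058), not without replicate 1 of vehicle (-0.16, 0.102) or under library size alone (-0.13, 0.0822). GSTM4 was lower in yijin (-0.26, 0.017), not under library size alone (-0.16, 0.107). The GSTM4 call was also lost without replicate 2 of vehicle (-0.22, 0.102) or of high yijin (-0.26, 0.0555).

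Polygala and aucklandia had 1 library a dose, so their changes carry no test and no replicate check. Values are CPM normalized over all 60 libraries, changes are differences of log2(CPM + 1), and a change counts as past the threshold at 1.5-fold. At the high dose most conjugation enzymes were lower than at the low dose in both extracts. In polygala 16 of 25 members were past 1.5-fold lower and 0 higher, where 16.7% of all genes were past it lower and 14.4% higher. They were 11 of 12 GSTs, 4 of 6 SULTs and 1 of 5 UGTs. In aucklandia 13 of 25 were lower and 0 higher (18.2% of all genes lower, 18.5% higher): 6 of 12 GSTs, 5 of 6 SULTs and 2 of 5 UGTs. The median member change was -0.95 in polygala and -0.69 in aucklandia, against 0.01 and 0.00 for all genes.

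SULT2A1 was lower at the high dose of polygala than at the other doses, with 145, 147 and 48.0 CPM at the low, medium and high dose, against 96.5, 101 and 94.7 CPM in the 3 vehicle libraries. In aucklandia it had 101, 141 and 17.8 CPM over the same doses. SULT1A1 had 85.1, 72.7 and 21.7 CPM in polygala and 102, 150.0 and 30.2 CPM in aucklandia, against 83.4, 92.0 and 88.9 CPM in vehicle. Its high-dose libraries were below all vehicle libraries in both, while in high yijin, soshiho and schisandra they were above it. SULT1A2 had 22.5, 20.4 and 10.1 CPM in polygala and 28.4, 37.4 and 9.60 CPM in aucklandia. SULT1C2, which sulfates small phenols, had 11.2, 10.7 and 5.08 CPM in polygala and 7.04, 5.59 and 0.831 CPM in aucklandia.

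The alpha GSTs were highest at the medium dose of aucklandia. In this extract GSTA1 had 68.0, 198 and 20.9 CPM at the low, medium and high dose, against 46.3, 41.6 and 40.2 CPM in vehicle, and GSTA2 had 11.6, 48.6 and 6.05 CPM, against 6.26, 6.33 and 6.12 CPM. The medium dose held the highest level of both genes in any library. From the low to the medium dose this was 1.53 on the log2 scale for GSTA1 and 1.97 for GSTA2, the only 2 of 25 members past 1.5-fold higher there, where 0.88% of all genes were. Both were also past 1.5-fold higher at the low dose than in vehicle (0.66 and 0.81, with 0.768% of all genes). In polygala GSTA1 had 40.4, 33.0 and 12.0 CPM and GSTA2 5.21, 4.06 and 0.999 CPM, so both were lower at each higher dose.

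In polygala 15 of 25 members were lower at each higher dose, where 27.7% of all tested genes were, and in aucklandia 15 of 25 were higher at the medium and lower at the high dose than at the low dose, where 23% of all genes were. UGT2B10 was lower at each higher dose of both, with 58.7, 52.7 and 29.9 CPM in polygala and 63.3, 43.4 and 22.4 CPM in aucklandia, against 80.6, 70.8 and 68.9 CPM in vehicle. GSTM4 had 30.5, 25.6 and 10.2 CPM in polygala and 30.9, 34.9 and 9.83 CPM in aucklandia. GSTK1 had 47.4, 33.4 and 19 CPM in polygala and 41.7, 48.9 and 19.8 CPM in aucklandia.

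Of the other GSTs past 1.5-fold, GSTA4 was lower by 1.29 in polygala and 1.17 in aucklandia on the log2 scale and GSTM2 by 1.03 and 0.97. GSTM3, GSTZ1, MGST1 and MGST2 were past it in polygala alone (-0.86, -0.99, -0.73 and -0.78), with -0.27, -0.21, -0.43 and -0.37 in aucklandia. Whether that differs between the extracts was not tested. MGST3, a microsomal form with peroxidase activity, went apart: 19.2, 14.1 and 7.41 CPM in polygala, but 18.1, 21.6 and 24.5 CPM in aucklandia, against 15.5, 16.8 and 15.6 CPM in vehicle. It was the 1 member past 1.5-fold higher in high aucklandia against vehicle (0.59), where 12 were lower (18.3% of all genes past it higher, 18.1% lower). UGT2B7 (14.7 CPM in high polygala and 16.3 CPM in high aucklandia), NAT1, TPMT and GSTO1 were not past 1.5-fold between high and low dose in either.

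**Figure D5:**
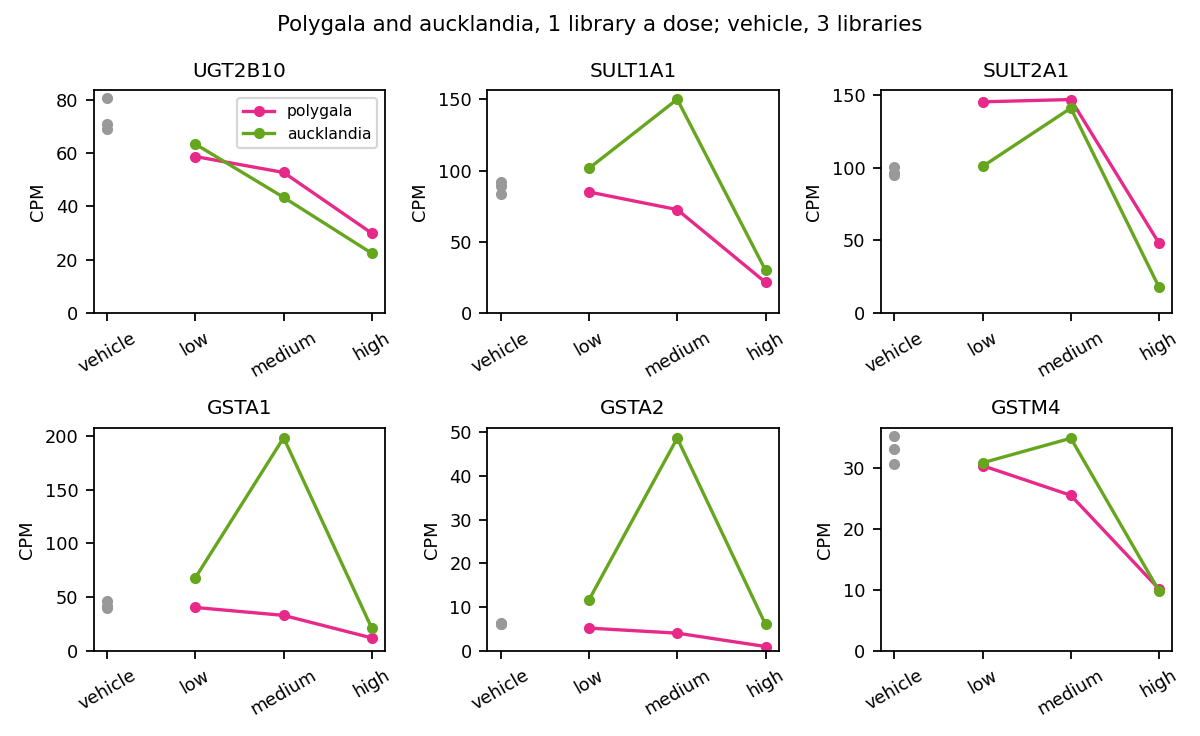
CPM of UGT2B10, SULT1A1, SULT2A1, GSTA1, GSTA2 and GSTM4 in the 3 vehicle libraries and at the low, medium and high dose of polygala and aucklandia, 1 library a dose, axes from 0. GSTA1 and GSTA2 are highest at the medium dose of aucklandia (198 and 48.6 CPM), and all 6 genes are lowest at the high dose of both extracts, GSTA2 in aucklandia only just below vehicle.

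The genes around the members give the wider pathway. Their schisandra changes include replicate 1 of low schisandra, which stood apart, and are not given without it. Of 20 further GST and glutathione supply genes, 12 were tested. Between high and low dose 4 were higher in yijin, 4 in soshiho and 5 in schisandra, and 0 were lower, with a list median of 0.20, 0.22 and 0.22 on the log2 scale. Over all tested genes 3.78%, 2.81% and 3.92% were higher and 4.01%, 2.27% and 3.4% lower in these extracts, which is the background for this and the other 4 lists. GCLM, the regulatory subunit of the enzyme that makes glutathione's precursor, had 52.8 ± 2.82 CPM in high yijin and 32.8 ± 0.514 CPM in low yijin (0.69 ± 0.077 on the log2 scale, SE), 71.0 ± 0.0289 CPM in high soshiho and 35.1 ± 1.16 CPM in low soshiho (1.02 ± 0.093), and 55.4 ± 0.973 CPM in high schisandra and 36.8 ± 6.06 CPM in low schisandra (0.58 ± 0.076). Its adjusted p was 9.8e-09, 5.9e-11 and 3.7e-07 in these extracts (edgeR). GCLC, the catalytic subunit, rose by 0.46, 0.66 and 0.30, and SLC7A11, the cystine importer, by 0.32, 0.79 and 0.53. Glutathione reductase, GSR, rose by 0.28, 0.30 and 0.17.

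Among 17 further UGT and glucuronide supply genes 5 were tested, of which 1 was higher and 0 lower in yijin, and 1 higher and 1 lower in soshiho and in schisandra. UGDH, which makes UDP-glucuronic acid, rose in yijin (0.30 ± 0.054), soshiho (0.28 ± 0.066) and schisandra (0.18 ± 0.054; adjusted p = 9.3e-05, 0.005 and 0.032). SLC35D1, a transporter of UDP-sugars into the endoplasmic reticulum, fell by 0.21 in soshiho and UGT2A3 by 0.17 in schisandra. Of 15 further SULT and sulfate supply genes 11 were tested, with 0 called in yijin, 1 in soshiho and 1 in schisandra. The sulfate transporter SLC26A1 rose by 0.34 in soshiho and 0.22 in schisandra. The enzymes that make the sulfate donor, PAPSS1 and PAPSS2, were not among the called genes.

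Of 19 methyl, acetyl and acyl transfer genes 15 were tested, of which 2 were higher and 4 lower in yijin, 1 and 3 in soshiho, and 2 and 3 in schisandra. The glycine conjugation partners ACSM2B and ACSM2A, which activate medium-chain and benzoic acids, fell in all 3 of these extracts, by 0.55 and 0.46 in yijin, 1.14 and 1.14 in soshiho and 0.47 and 0.39 in schisandra. GNMT, which methylates glycine, fell by 1.01, 1.11 and 0.62, on levels of 2.36 CPM or less. MAT1A, the liver enzyme that makes the methyl donor S-adenosylmethionine, rose by 0.17, 0.32 and 0.14.

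All 14 regulators in the list were tested, of which 0 were higher and 4 lower in yijin, 0 and 3 in soshiho, and 0 and 1 in schisandra. NR1H4, the bile acid receptor FXR, fell in yijin (27.4 ± 2.12 CPM at the high dose and 41.8 ± 0.720 CPM at the low dose, n = 3 each), soshiho (22.7 ± 0.671 and 41.6 ± 0.479 CPM, n = 2 each) and schisandra (27.8 ± 1.5 and 43.7 ± 7.19 CPM, n = 3 each), by 0.61, 0.87 and 0.66 on the log2 scale (adjusted p = 4.1e-09, 1e-10 and 3.8e-10, edgeR). CEBPA, which encodes C/EBP alpha, fell by 0.36 in yijin and 0.75 in soshiho, and FOXA1 by 0.23 and 0.41. Liriope, longan and zizyphus had 0 genes called in these 5 lists between high and low dose. At an unadjusted p under 0.05 there were 10, 3 and 4 of the 57 tested, with no share of all genes to set beside them. DESeq2 called 0 in each of these 3 extracts.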

How the data were processed

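Transcripts of HepG2 cells were counted in 60 libraries. Libraries were directional (MGIEasy kit, input RNA integrity number above 7) and sequenced with MGIseq as 100 bp pairs, per the labels' protocols. The authors deposited expected counts per gene; per the submitters' processing notes, FastQC 0.11.9, Trim Galore 0.6.5, STAR 2.7.3a and RSEM 1.3.3 were used on hg38, and the annotation release is not given in the sources used here. RSEM shares out reads that fit several genes, so counts of near-identical enzymes are uncertain. Of the values 10.4% were not whole, and all were rounded. Symbols came from a name table (56558 of 60675 identifiers) and positions from GENCODE 29 on GRCh38. UGT1A3, UGT1A5, GSTT1 and the wortmannin control named in the series text are not analysed here.

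One edgeR 4.0.16 quasi-likelihood model (R 4.3.3) with 1 mean per group took in the 54 libraries of the 19 groups that have 2 or 3. Scaling was by TMM (factors 0.90 to 1.03), and 16924 genes passed the filter edgeR applies by group. Within a comparison, Benjamini-Hochberg adjusted p-values under 0.05 were called. Standard errors come from the fitted coefficients. Polygala and aucklandia, with 1 library a dose, got no test. The edgeR fit was run on simulated counts with changes planted in high yijin, in well-counted genes, and the same spread for every gene. Changes in low-count genes, libraries that stand apart and extracts with 1 library a dose were not covered by it. DESeq2 1.42.0, other scalings, no filter, a replicate block and leaving out libraries were alternatives. Figures were drawn with matplotlib 3.10.9 in Python 3.11.15.

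Of 51 replicate pairs 0 held identical values. Same-numbered libraries did not all deviate together, so the numbers were not taken as pairing. All 31 members are accounted for. Values are given for every library for members called between high and low dose in a replicated extract with a change of 1.25-fold or more, up to 5 a family, and for members past 1.5-fold with 5 CPM or more in polygala or aucklandia, some of these by their change alone. From each wider list up to 3 genes an extract with the smallest p are named, and SLC7A11 and GSR in all 3 extracts, UGT2A3, MAT1A and FOXA1 beside them. The members and lists were chosen with earlier results of these data known, and the 2 libraries that stand apart were found in the data. The values are shares of each library, and shifts in the RNA content of cells are outside what they show.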

Additional observations from a re-analysis of the deposited data

Results flagged for a closer look

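The change between high and low dose differed among the 6 replicated extracts for 4 members by edgeR's F test, with adjusted p-values over all genes of 1.41e-06 for SULT2A1, 1.83e-05 for GSTA1, 1.06e-04 for GSTA2 and 1.51e-02 for UGT2B10. SULT2A1 changed by -0.50 on the log2 scale in yijin, -0.36 in schisandra, -0.30 in soshiho, -0.10 in zizyphus, 0.06 in longan and 0.15 in liriope. GSTA1 changed by -0.57 in schisandra, -0.52 in yijin, -0.46 in soshiho, 0.14 in longan, 0.16 in zizyphus and 0.49 in liriope.

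Between schisandra and liriope, which share a sample code set, the difference of the 2 changes on the log2 scale was -1.18 for GSTA2, -1.06 for GSTA1, -0.52 for SULT2A1, -0.47 for GSTA4 and -0.30 for UGT2B10, each with an adjusted p under 0.05 by edgeR. Replicate 1 of low schisandra had the highest SULT2A1, UGT2B10, GSTA2 and GSTA4 of its group, and replicate 2 of high liriope the highest SULT2A1, GSTA1 and GSTA2 of its group. Without both, the differences were -0.80 for GSTA2, -0.78 for GSTA1 and -0.32 for SULT2A1 (adjusted p = 0.00557, 0.00462 and 0.00673), and GSTA4 (-0.24) and UGT2B10 (-0.15) were no longer called.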

How the results depend on the processing

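No called change of a member turned direction under an alternative. Changes of tested members that were not called in the main analysis turned sign in 461 alternative values, 0 of them called. Among changes that some alternative called, GSTM4 in high liriope against vehicle (-0.06) was 0.0215 under library size alone and -0.2252 to 0.0614 with 1 library left out, GSTK1 there (-0.10) was -0.2951 to 0.0182 with 1 left out, and TPMT in high zizyphus against vehicle -0.0074 to 0.1484. Among all calls of genes between high and low dose, library size alone turned the balance to mostly lower in soshiho and schisandra. Counts that moved by over 1.5 times are given here, with the cause not tested unless the setting itself reduces the libraries or genes. For genes called between high and low dose, no filter gave 207 in liriope, 63 in longan and 79 in zizyphus, and 3 members in liriope (GSTA1, GSTA2 and MGST1). DESeq2 gave 14, 6 and 13, and 1 member in liriope (GSTA1). Only the libraries of the 2 doses gave 0 genes in liriope, 0 in zizyphus, 132 in schisandra with 0 members, and 1707 in soshiho with 7 members. For soshiho library size alone gave 5 members, and so did the fit without both libraries that stand apart, an alternative chosen after seeing the data. That fit gave 731 genes in schisandra and 15 in zizyphus.

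For genes called between medium and low dose, no filter gave 89 in yijin, 124 in soshiho with 1 member, 69 in liriope, 256 in schisandra, 84 in longan and 70 in zizyphus. DESeq2 gave 8 in yijin, 32 in soshiho, 2 in liriope, 21 in schisandra and 2 in longan. Without both libraries that stand apart it was 3 in yijin, 44 in soshiho and 1 in schisandra, and library size alone gave 11 in soshiho. Against vehicle, library size alone called 10 members in liriope and 6 in zizyphus, and the fit without both libraries 3 in liriope (GSTO1 higher, GSTM4 and GSTK1 lower). Differences between extracts gave 237 genes for soshiho minus yijin, 64 for zizyphus minus longan and 1481 over all 6 extracts with no filter. Without both libraries they gave 257 for soshiho minus yijin and 370, with 3 members, for schisandra minus liriope. With a pseudocount of 0.25 CPM 1 member was past 1.5-fold higher in polygala, high over low, and with 4 CPM 0 were in aucklandia, high over vehicle. Library size alone gave 4120 genes past 1.5-fold higher in polygala over the low dose, and over vehicle 4744 higher and 1779 lower.

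Leaving out 1 library at a time gave, between high and low dose, 836 to 1030 genes and 3 to 6 members in yijin, 454 to 496 and 1 to 2 in soshiho, 615 to 1825 and 4 to 9 in schisandra, and 2 to 6 genes in liriope, 0 to 2 in longan and 3 to 7 in zizyphus. Between medium and low dose it gave 7 to 9 genes in soshiho, 1 to 300 in schisandra and 1 to 2 in zizyphus. Against vehicle it gave 2018 to 3238 genes in soshiho, 3 to 5 members in liriope, 2048 to 2992 genes and 2 to 4 members in longan, and 1867 to 2687 genes and 1 to 2 members in zizyphus. Where this leaves 1 soshiho library in a dose, that library is assumed to vary like the other groups. Member counts here include UGT1A1 wherever it was called.

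With the replicate number as a block, liriope had 8 genes called between high and low dose. Yijin had 1398 genes and the same number of members, 7, UGT1A1 included. A block within each code set, chosen after seeing the data, gave 11 genes and 1 member in liriope, 11 genes in zizyphus, and between medium and low dose 36 in soshiho and 1 in longan. Same-numbered libraries share only a number, and correlations of their deviations ran from -0.47 to 0.54. Every library correlated best with its own number in 3 of the 15 comparisons with 3 pairs.

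UGT1A1, UGT2B11, SULT1B1 and SULT1E1 rest on under 1 CPM, where counting limits what can be seen. Most member changes called are under 1.5-fold, near the limit of 2 or 3 libraries a group, and for single members 107 alternative values lost a call and 71 gained one. Vehicle differs from every treated group in code set, and polygala and aucklandia have no replicates.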
